A study of Mus musculus with 34 samples.

Results

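The genes described here are 38 imprinted genes of the mouse, in 14 chromosomal domains, together with the control regions that lie within them. They were chosen by name, and each was read as the 1 kb bins that overlap the span of the gene and 10 kb on either side of it, in coordinates of GRCm38. The 38 windows hold 3203 of 2631630 bins, and 307 of those bins lie in the windows of more than 1 gene. The Igf2 and H19 locus is not analysed here. The cells were C2C12, an immortal mouse myoblast line, and no genotype, treatment or time differed between the libraries. The assay, mtChIL-seq, inserts a probe next to a bound antibody with the Tn5 transposase, copies the flanking DNA by transcription and sequences the copies. In the dual libraries, antibodies to a pair of targets were used in the same cells, either H3K4me3 with CTCF, at 10000 and 1000 cells, or H3K27ac with Pol2S2P, at 1000 and 100 cells. Each target and cell number of the dual libraries has 3 libraries. The single libraries, with 1 antibody, are 2 for CTCF at 10000 cells and 2 for Pol2S2P at 1000 cells. Reads were not separated by parental allele, so each count adds up both alleles. A low count can mean fewer cells or alleles with the target, or less of it on each, and these cannot be told apart.

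Imprinted genes are expressed mainly from the allele of 1 parent. In most domains the choice is set by a control region that carries DNA methylation on the maternal or the paternal allele from the germline onward. The unmethylated copy often works as a promoter with H3K4me3, a histone mark of active starts, or as a site for CTCF, a zinc finger protein that binds unmethylated DNA and organises chromatin loops. Several domains have a long noncoding RNA that starts in the control region and is transcribed through or away from neighbouring genes, which are silenced in cis. H3K27ac marks active promoters and enhancers, and Pol2S2P stands for the elongating form of RNA polymerase II, which carries phosphate on serine 2 of its tail and is found along transcribed gene bodies.

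The sequence just before the annotated start is shown for 4 starts that carried H3K4me3 in these cells and for 2 that had almost none. Each is given from 5′ to 3′ on the strand of the gene, and CG dinucleotides, the sites of DNA methylation, are in capitals. The sequences are from RefSeq for GRCm38.p6. They are Kcnq1ot1 at chr7:143296548-143296797 on the minus strand, Airn at chr17:12741061-12741310 on the plus strand, the stretch before the shared Peg3 and Usp29 start at chr7:6730420-6730582 on the minus strand, Ube3a at chr7:59228500-59228749 on the plus strand, Igf2r at chr17:12769707-12769956 on the minus strand, and Grb10 at chr11:12037421-12037670 on the minus strand.
Kcnq1ot1: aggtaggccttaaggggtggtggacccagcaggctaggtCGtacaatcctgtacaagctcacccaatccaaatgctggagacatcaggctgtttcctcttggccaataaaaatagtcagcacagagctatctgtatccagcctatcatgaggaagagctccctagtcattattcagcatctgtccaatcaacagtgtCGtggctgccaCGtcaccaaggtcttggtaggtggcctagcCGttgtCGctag
Airn: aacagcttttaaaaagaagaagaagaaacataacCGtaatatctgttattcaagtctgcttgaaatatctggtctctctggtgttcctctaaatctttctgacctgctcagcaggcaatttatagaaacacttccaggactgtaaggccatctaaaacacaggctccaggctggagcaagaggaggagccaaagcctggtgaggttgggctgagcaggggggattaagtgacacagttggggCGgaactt
Peg3-Usp29: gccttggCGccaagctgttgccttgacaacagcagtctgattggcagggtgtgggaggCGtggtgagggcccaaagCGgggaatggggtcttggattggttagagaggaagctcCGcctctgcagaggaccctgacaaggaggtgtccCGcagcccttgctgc
Ube3a: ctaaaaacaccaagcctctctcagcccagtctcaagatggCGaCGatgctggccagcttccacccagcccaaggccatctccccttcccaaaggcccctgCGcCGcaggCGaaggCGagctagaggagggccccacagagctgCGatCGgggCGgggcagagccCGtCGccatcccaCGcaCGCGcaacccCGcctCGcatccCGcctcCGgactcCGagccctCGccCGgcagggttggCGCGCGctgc
Igf2r: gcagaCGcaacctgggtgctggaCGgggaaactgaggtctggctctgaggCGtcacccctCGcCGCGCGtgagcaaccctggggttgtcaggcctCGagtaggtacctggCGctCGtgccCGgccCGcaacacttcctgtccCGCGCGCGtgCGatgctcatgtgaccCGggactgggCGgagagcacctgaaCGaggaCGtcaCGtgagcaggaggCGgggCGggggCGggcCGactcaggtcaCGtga
Grb10: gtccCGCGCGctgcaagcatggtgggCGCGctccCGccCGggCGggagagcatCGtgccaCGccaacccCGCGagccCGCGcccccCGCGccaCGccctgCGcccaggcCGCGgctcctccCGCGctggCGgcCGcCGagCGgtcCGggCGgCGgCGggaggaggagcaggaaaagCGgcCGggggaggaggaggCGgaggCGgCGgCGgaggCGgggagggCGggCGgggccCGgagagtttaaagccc

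The CG counts of these 6 stretches did not sort their starts by H3K4me3, and bases after the starts were not counted. Other member starts went both ways. The marked starts of Gnas at chr2:174330006 and of H13 had 29 and 18 CG, while the nearly empty ones of Ascl2 and Rian had 19 and 0. Kcnq1ot1 had 5 CG in 250 bases and Airn had 2, at the 44.1 and 18.6 percentiles of 32619 promoters, whose median was 6. Ube3a had 24, at the 87.9 percentile. Igf2r had 27 and Grb10 had 40, at the 91.4 and 98.7 percentiles, and both of these starts had only 1 H3K4me3 count in all at 10000 cells. The bins that hold these starts were also low for the other targets, and whether reads can be placed there was not tested. The stretch between the Peg3 and Usp29 starts had 5 CG in 163 bases. A search on both strands for TGCCGC, the site of the imprint guardian ZFP57, for GCCATNTT, a site of YY1, and for the core of the CTCF site (CCA, 2 free bases, AG, 2 free bases and GGC), found these letters before a start of 5, 2 and 2 of the 32 members with an annotated start. Over all promoters the shares were 8.73%, 3.93% and 2.08%. These shares are per promoter, while a member with several starts was counted if any of them matched, so the figures are not directly comparable. Of the 6 sequences printed, Ube3a alone held a match, to GCCATNTT on the minus strand. A match is a description of the letters only.

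The libraries held 719766 to 6653298 counts on the autosomes and the X chromosome. Values below are CPM, the usual scaling of a count to its library total, or density, which is the mean count per bin divided by the mean of all bins in the same library, so that 1 is the genome mean. Replicate libraries of a group differed by more than counting error, which would give a chi-square per degree of freedom near 1, and none were identical. Over 100 kb blocks it was 1.14 to 1.19 at 10000 cells, 1.34 to 1.57 at 1000 cells and 1.7 to 1.8 at 100 cells. Nothing in the labels says that they come from separate cultures, so p-values measure the spread between these libraries only. The median H3K4me3 density at starts of the myoblast markers was 11.8 at 10000 cells, with Myf5 at 42.8 and Des at 11.8, while Pax7 and Myog, which mark satellite and differentiating cells, were at 0.296 and 0.964. Fibroblast markers had a median of 6.8, with Col3a1 (49.4) above Myf5 and Col1a2 (12.7) between Des and the myoblast marker Cdh15 (17.8). Pdgfra (0.906) and Tcf21 (0.503), also fibroblast markers, were low. Medians of the marker lists cover only markers with an annotated start, which leaves out Myod1 and Col1a1 among others. The myoblast and fibroblast values thus overlapped, and whether H3K4me3 at starts sets these cells apart from fibroblasts was not tested. Medians were 0.35 for pluripotency, 0.556 for blood and endothelial and 0.778 for neuronal markers. Bins with no count in any library were 6.57% of all bins, but 28.8% in the Copg2 window, 16.7% for Mest and 9.09% for Peg12. Whether reads can be placed in those bins was not tested.

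As a class, the imprinted windows were close to the genome mean for each target. Over all member bins the density was 0.966 ± 0.00399 for H3K4me3 and 1.13 ± 0.00997 for CTCF at 10000 cells, and 0.814 ± 0.0101 for H3K27ac and 0.962 ± 0.00231 for Pol2S2P at 1000 cells (SD, n = 3 each). The median window of the 38 members lay below the median window of all 49550 genes for each target, at 0.654 against 0.859 for H3K4me3, 1.05 against 1.18 for CTCF, 0.607 against 0.911 for H3K27ac and 0.752 against 1.03 for Pol2S2P. This class mean hid a wide spread between domains. For H3K4me3 the domains of Nnat (7.23), Gnas (5.27), H13 (4.73) and Impact (4.65) were far above the genome mean. Grb10 was at 1.05, and the other 9 domains ran from 0.908 for Igf2r down to 0.407 for Rasgrf1. The same 4 domains also led for Pol2S2P, with Impact at 4.27, H13 at 3.54, Nnat at 3.51 and Gnas at 2.11. For CTCF, H13 (3.88) and Nnat (3.34) led, followed by Impact (2.29) and Grb10 (2.26), and the Snrpn domain was lowest at 0.539.

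At the annotated starts, H3K4me3 was concentrated on a minority of the members. Counts were summed over the bin of each start and its neighbour on either side, for the 44 annotated starts of 32 members. Peg10, Sgce, Cdkn1c, Kcnq1, Rtl1 and Impact have no start in the table used here. The highest was the downstream start of Gnas at chr2:174330006, which makes the alpha subunit of the stimulatory G protein, with 54.3, 50.2 and 70.4 CPM in the 3 libraries at 10000 cells (mean 58.3 ± 10.7, SD, n = 3), 51.1 times the genome mean. The neighbouring Gnas start at chr2:174327749 had 31.1, 39.5 and 35.9 CPM. The upstream start at chr2:174284320 had 1.41, 1.01 and 0 CPM. All 3 libraries thus put the mark on the downstream starts of this gene and almost none on the upstream one.

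Ube3a, the ubiquitin ligase that is imprinted in neurons and biallelic in most other cells, had 41.6, 32.9 and 33.1 CPM at its start. H13, a signal peptide peptidase, had 30.3, 32.4 and 29 CPM. Kcnq1ot1, the noncoding RNA that silences the Kcnq1 domain in cis, had 12, 11.1 and 13.1 CPM (mean 12.1 ± 0.985). Airn, the noncoding RNA that silences Igf2r, had 8.47, 8.61 and 13.1 CPM (mean 10.1 ± 2.64). These lie at the 91, 87.8, 72.1 and 70.2 percentiles of all annotated starts, and the ranges of Kcnq1ot1 and Airn overlapped each other. At 1000 cells Kcnq1ot1 had 22.2, 14.4 and 9.5 CPM and Airn 22.2, 6.83 and 8.55 CPM, with the highest value of each in the same library, which was the shallowest.

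A lower tier followed. Copg2, a coat protein of transport vesicles, had 7.06, 8.61 and 6.21 CPM. The start shared by Peg3, a zinc finger gene, and Usp29, a ubiquitin protease, had 5.65, 7.09 and 6.9 CPM. Of the 4 Snrpn starts, the innermost, at chr7:60005199, had 4.23, 7.6 and 7.59 CPM, while the density of the other 3 was between 0 and 0.296. Mkrn3, Peg12, Tspan32, Nnat and Asb4 had between 0.706 and 4.23 CPM in any library. The other 18 members with an annotated start had no more than 2.12 CPM in any library at the start with most H3K4me3.

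Other starts were nearly empty. Igf2r, the receptor that clears the growth factor IGF2, had 0, 0.507 and 0 CPM at its start, which is 1 count in all, beside the marked Airn start within the same gene. Both Grb10 starts, those of an adaptor that restrains insulin signalling, had 1 and 2 counts. The bin of the Igf2r start was low for each target, at 0 CPM for H3K4me3, 0.127 for CTCF, 0 for H3K27ac and 0 for Pol2S2P. The bin of the Grb10 start with 1 count had 0, 0.064, 0.11 and 0 CPM in the same order. Whether reads can be placed in these bins was not tested. Meg3, the noncoding RNA of the Dlk1-Dio3 domain, had 2 counts at its better marked start, and Dlk1, a Notch-like ligand of progenitor cells, had 3. Ndn, a growth suppressor of the MAGE family, and Ascl2, a transcription factor of the placenta, had 0 counts, which at this depth allows up to 0.62 CPM (3 counts over the group, counting error only). Mest, a hydrolase family gene expressed in the mesoderm, had 0.706, 1.52 and 0 CPM.

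**Figure D1:**
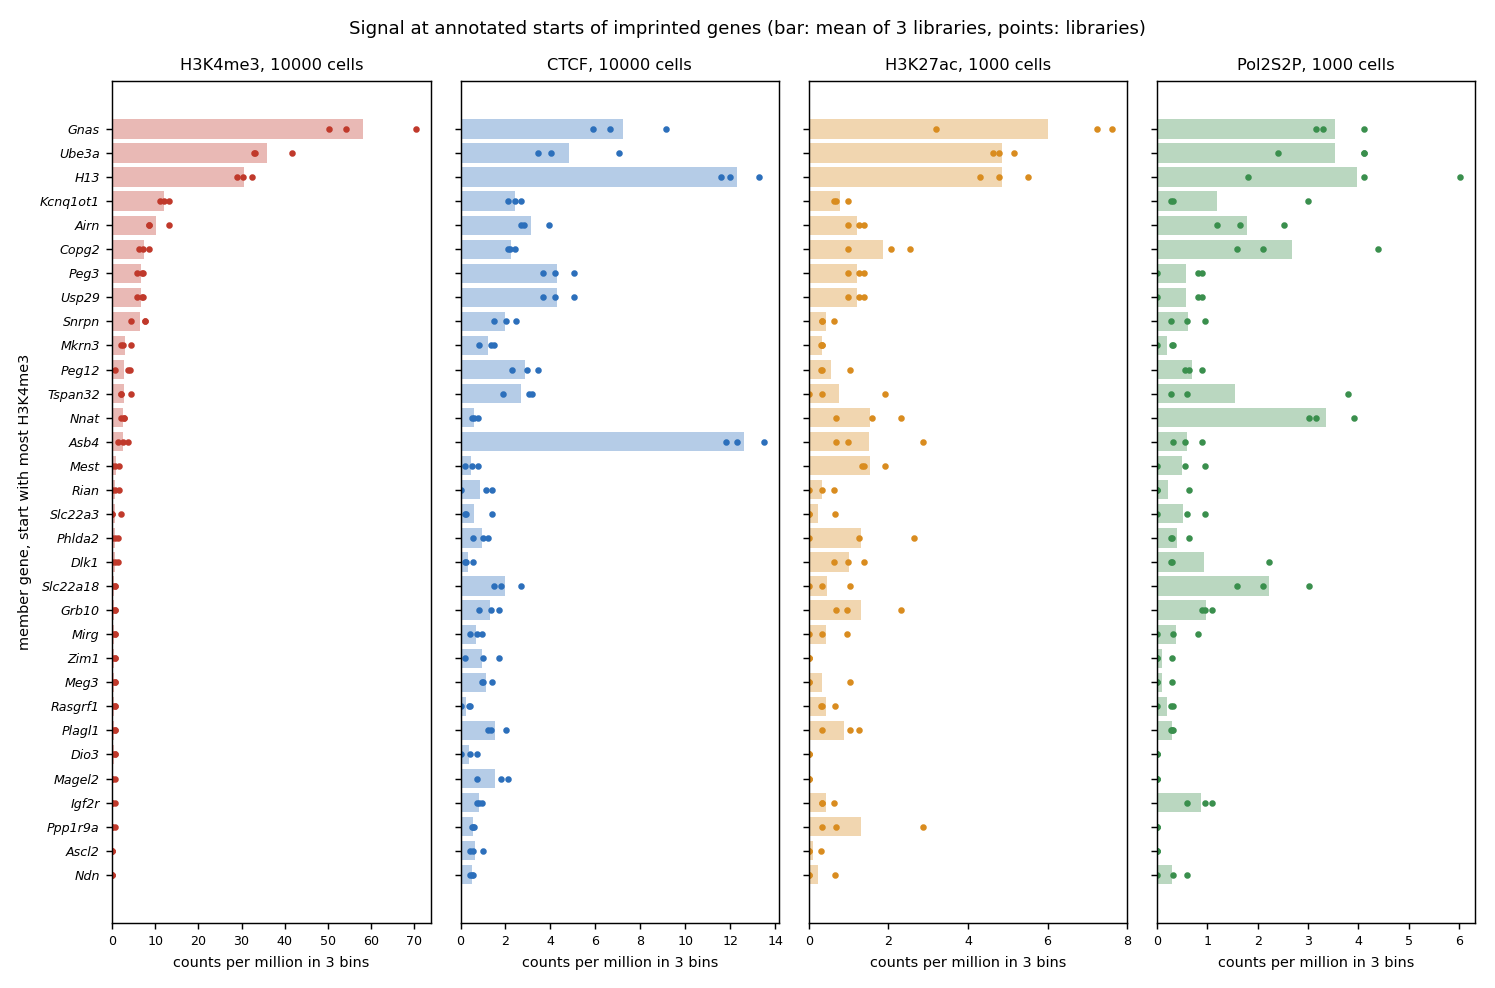
CPM in the 3 bins around the annotated start with most H3K4me3 of each of 32 members (rows), for the 4 targets in the dual libraries named above each panel, with scales that differ between panels. Bars are means of 3 libraries and points are the libraries. Gnas, Ube3a and H13 lead for H3K4me3, while Asb4, with H3K4me3 between 1.38 and 3.53 CPM, has the highest CTCF, with libraries at 12.3, 13.5 and 11.8 CPM.

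CTCF had another order at the starts. Asb4, which encodes a substrate adaptor of a ubiquitin ligase, was highest with 12.3, 13.5 and 11.8 CPM at 10000 cells (mean 12.6 ± 0.894, the 97 percentile), against 3.53, 2.53 and 1.38 CPM of H3K4me3. H13 had 13.3, 11.6 and 12 CPM of CTCF, in the same range as Asb4. Gnas had 6.67, 9.16 and 5.9, and the Peg3 and Usp29 start 5.05, 4.2 and 3.69. Kcnq1ot1 (2.42, 2.1 and 2.7) and Airn (2.83, 2.67 and 3.93) were lower, and Igf2r had 0.808, 0.954 and 0.738. Asb4 and H13 thus stood above every other member start in all 3 libraries.

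The comparison of H3K4me3 with CTCF asks which windows carry relatively more of the promoter mark and which more of the architectural protein, within the same dual stained cells. At 10000 cells all 38 members were tested, and 6 had more H3K4me3 and 22 had more CTCF (edgeR, Benjamini-Hochberg adjusted p under 0.05). Among all 40976 windows tested, 32% were called higher and 37.2% lower for H3K4me3. The median log2 difference was -0.66 over the members and -0.24 over all windows. The side of a call says which target takes the larger share of its own library, so it is a relative statement. At 1000 cells, 34 members passed the filter on low counts, and 6 were higher and 16 lower, against 31.4% and 29.2% of all windows. A member that passed this filter only through its CTCF counts had to come out lower.

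The same 6 windows were higher for H3K4me3 at both cell numbers. Ube3a had 110, 102 and 115 CPM of H3K4me3 against 37.4, 37.2 and 36.4 CPM of CTCF at 10000 cells (log2 difference 1.55 ± 0.10, SE, edgeR adjusted p = 4.71e-42). The Gnas window had 162, 162 and 174 against 66.7, 80.1 and 61.2 (1.24 ± 0.08). Neither gene's libraries overlapped between targets. Nnat, a small membrane protein of developing neurons, followed with 52.2, 72.5 and 73.1 against 32.5, 31.3 and 27.5 CPM (1.12 ± 0.12). Impact, a regulator of translation under stress, had 109, 106 and 97.3 against 50.3, 52.3 and 51.1 (1.02 ± 0.09). Kcnq1ot1 had 42.3, 49.7 and 46.2 against 26.9, 26.7 and 36.1 CPM (0.65 ± 0.13, edgeR adjusted p = 1.78e-06), and H13 had 111, 109 and 103 against 94, 85.7 and 85.6 (0.29 ± 0.08). The lowest H3K4me3 library was above the highest CTCF library for each of these. At 1000 cells the log2 differences were 1.50 ± 0.14 for Ube3a, 1.44 ± 0.11 for Gnas, 1.12 ± 0.13 for Impact, 0.86 ± 0.17 for Nnat, 0.54 ± 0.18 for Kcnq1ot1 and 0.48 ± 0.12 for H13. The Kcnq1ot1 call at 1000 cells was lost without H3K4me3 replicate 2 (0.49, edgeR adjusted p = 0.0538).

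Not all of this signal lies on the named gene. In the Nnat window, the H3K4me3 peak was at the start of Blcap, the gene in whose intron Nnat lies, where the 2 highest bins had 20.6 ± 4.3 and 14.9 ± 6.92 CPM. The Nnat start itself had 2.82, 2.03 and 2.76 CPM. In the H13 window, a separate H3K4me3 bin at chr2:152686381-152687380 lay at the start of Mcts2, an imprinted retrogene inside H13, with 10.2 ± 1.13 CPM against 4.07 ± 0.202 for CTCF (1.34 ± 0.28, edgeR adjusted p = 7.25e-06), a call that was lost with TMM factors (0.37) and DESeq2 (0.13). Blcap and Mcts2 were picked out after their values were seen.

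The largest excess of CTCF was next to Cdkn1c, an inhibitor of cyclin-dependent kinases that restrains growth. Its window had 4.94, 7.09 and 2.07 CPM of H3K4me3 against 24.2, 23.7 and 27.5 CPM of CTCF (-2.32 ± 0.25). Slc22a18, a transporter whose window overlaps that of Cdkn1c, had 12, 12.2 and 12.4 against 46.1, 45.4 and 50.9 CPM (-1.95 ± 0.17). Magel2, a MAGE family gene of the Snrpn domain, had 6.35, 4.56 and 4.83 against 18.8, 23.1 and 16 CPM (-1.91 ± 0.26). For none of the 3 did the libraries of the targets overlap. Meg3 had 4.94, 5.07 and 3.45 against 13.3, 18.9 and 16 CPM (-1.82 ± 0.28). Asb4 had 28.2, 30.4 and 19.3 against 77.4, 81.3 and 77.5 (-1.57 ± 0.12), and Grb10 had 49.4, 58.8 and 45.5 against 111, 110 and 109 (-1.08 ± 0.09). In each of these 3 too, every CTCF library was above every H3K4me3 library. At 1000 cells the 3 largest were Magel2 (-2.08), Cdkn1c (-1.77) and Zim1 (-1.60), a zinc finger gene next to Peg3.

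Among the remaining heads of domains, 6 were called lower for H3K4me3. Plagl1, a zinc finger factor that controls growth genes, had 12.7, 15.7 and 13.8 CPM of H3K4me3 against 40, 32.1 and 35.2 of CTCF (-1.32), with no overlap. Rasgrf1, an exchange factor for Ras, had 26.1, 14.2 and 24.2 against 37.4, 36.6 and 42.5 (-0.90). Sgce, a sarcoglycan of the muscle membrane, had 11.3, 20.3 and 12.4 against 26.5, 25.9 and 26.3 (-0.78). Dlk1 had 6.35, 7.6 and 11 against 14.3, 14.1 and 12.3 CPM (-0.72). None of these 4 overlapped, although the Dlk1 call was lost with DESeq2 (-0.57, adjusted p = 0.126), without H3K4me3 replicate 1 (-0.59, edgeR adjusted p = 0.0516) and without H3K4me3 replicate 2 (-0.65, edgeR adjusted p = 0.05). Snrpn, which encodes a protein of the spliceosome, had 45.9, 45.6 and 32.4 against 59.2, 64.3 and 57.8 (-0.54), and Airn had 63.5, 62.8 and 87.6 against 90.3, 98.3 and 94.2 (-0.42). The Airn call was lost with DESeq2 (-0.27, adjusted p = 0.0656).

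Igf2r was not called, at 38.8, 38.5 and 51.1 CPM of H3K4me3 against 51.7, 46.2 and 53.1 CPM of CTCF (-0.24). Peg3 (22.6, 19.8 and 15.9 against 19.2, 20 and 25.1, -0.13), Mest (7.76, 11.7 and 6.9 against 7.88, 8.97 and 8.11, 0.12) and Peg10, a retrotransposon-derived gene needed for the placenta (4.23, 6.08 and 4.14 against 5.86, 6.68 and 6.39, -0.35), overlapped between the targets and were not called either. Igf2r was called lower without H3K4me3 replicate 3 (-0.37, edgeR adjusted p = 0.0127) and without CTCF replicate 2 (-0.30, edgeR adjusted p = 0.0249). The others not called were Copg2, Ascl2, Peg12, Dio3, Tspan32 and Ndn, with log2 differences from -1.04 to -0.10. Ndn had the largest of these (edgeR adjusted p = 0.06), and it was called without H3K4me3 replicate 2 (-2.41, edgeR adjusted p = 0.00822). The other members called lower were Phlda2, Slc22a3, Rtl1, Ppp1r9a, Zim1, Usp29, Rian, Mirg, Mkrn3 and Kcnq1, from -1.71 for Phlda2, a placental growth inhibitor, to -0.38 for Kcnq1, a potassium channel. Of these, Mkrn3 (-0.60), a ubiquitin ligase that restrains puberty, lost its call without H3K4me3 replicate 2 or 3 or CTCF replicate 1 (-0.52 each) or CTCF replicate 2 (-0.54). Zim1 (-0.97) lost it without CTCF replicate 3 (-0.67), and Mirg (-0.77), a host of microRNAs, without H3K4me3 replicate 3 (-0.42) or CTCF replicate 1 (-0.62) and with the gene span alone (-0.71, edgeR adjusted p = 0.127). Mkrn3 also lost it with TMM factors (-0.50, edgeR adjusted p = 0.0602). With DESeq2, 16 members were lower in place of 22, since Kcnq1 (-0.23, adjusted p = 0.0558), Zim1 (-0.86, adjusted p = 0.0553), Mkrn3 (-0.44, adjusted p = 0.243) and Mirg (-0.64, adjusted p = 0.163) were lost beside Dlk1 and Airn, while 6 members were still higher.

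**Figure D2:**
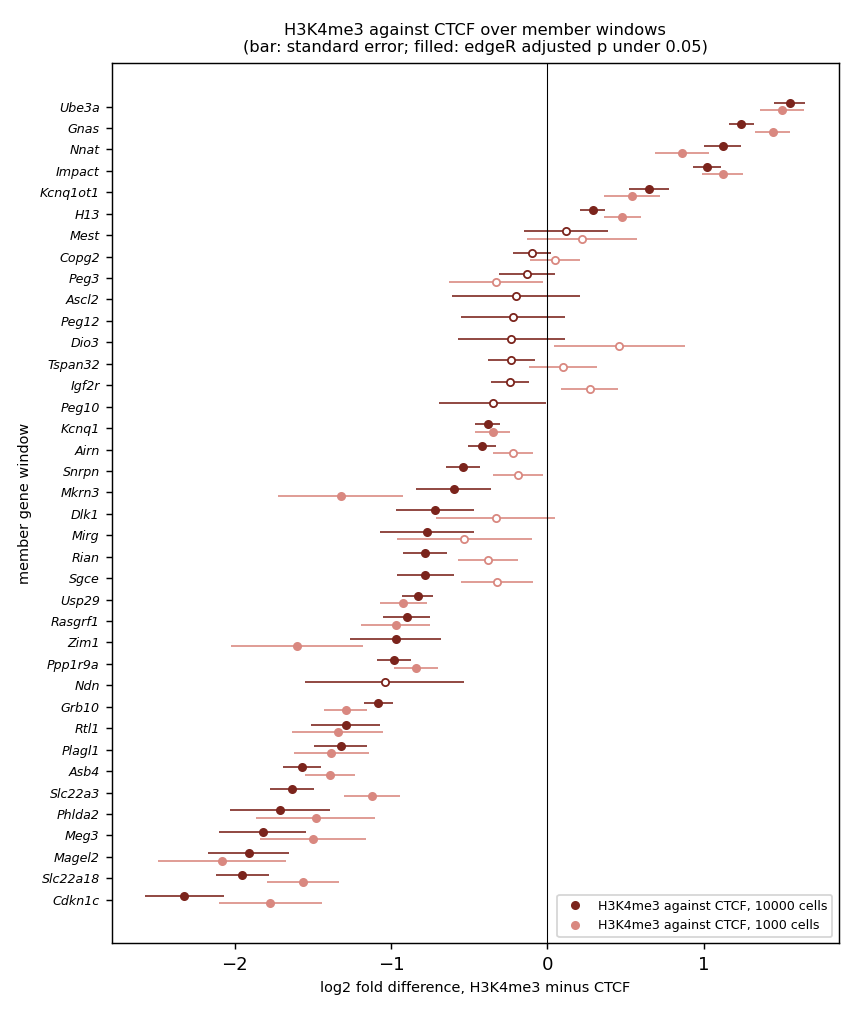
Log2 difference of H3K4me3 minus CTCF for each member window (rows, ordered by the value at 10000 cells), at 10000 cells and 1000 cells, with bars of 1 standard error and filled points where the edgeR adjusted p was under 0.05. Ube3a (1.55) is at the top, Cdkn1c (-2.32) at the bottom, and the same 6 windows are filled to the right of 0 at both cell numbers.

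Close to the gene ends, the starts of Ube3a and Kcnq1ot1 had the largest excess of H3K4me3. The counts within 1 kb of each end were tested, and 12 member ends passed the filter at 10000 cells. Of these, 6 were higher and 2 lower for H3K4me3, against 67% and 16.3% of all ends. An end that passed through the counts of 1 target alone had to come out on the side of that target. The median log2 difference was 0.96 over the member ends and 1.47 over all ends, so a positive value under 1.47 is below the usual end. Why the median of all ends lay above 0 was not tested. The Ube3a start (2.85 ± 0.20, edgeR adjusted p = 1.38e-22), the Kcnq1ot1 start (2.31 ± 0.31, edgeR adjusted p = 2.86e-10) and 1 end of Impact (2.10 ± 0.25) lay above that median. The starts of Copg2 (1.71 ± 0.35) and Airn (1.67 ± 0.32, edgeR adjusted p = 2.04e-06) were near it and H13 (1.32 ± 0.16) just below it. Asb4, at its start (-2.33 ± 0.33, edgeR adjusted p = 1.86e-09), and Magel2, at its far end (-1.93 ± 0.40), were lower. The Peg3 and Usp29 start was not called (0.60 ± 0.33, edgeR adjusted p = 0.0823), nor was the Peg12 start (0.01 ± 0.44).

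Scaling by TMM factors, which centre the ends on a median of 0.02, left the Ube3a start (1.39), the Kcnq1ot1 start (0.86) and the Impact end (0.65) higher, while Airn (0.22, edgeR adjusted p = 0.523) and Copg2 (0.27, edgeR adjusted p = 0.492) were no longer called, H13 turned to -0.14 and the Peg3 and Usp29 start to -0.85. With DESeq2 only the Ube3a start stayed above the threshold, with Kcnq1ot1 at 0.84 (adjusted p = 0.057). Over all ends the share of calls that were higher moved from 80.4% to 49.2% with TMM factors and 46.9% with DESeq2. At 1000 cells, 6 member ends were tested, and 5 were higher and 1 lower, against 77.6% and 10.1% of all ends. Ube3a (3.26 ± 0.34), Kcnq1ot1 (3.09 ± 0.42) and Airn (2.59 ± 0.49) lay above the median of 1.93, Impact (1.96 ± 0.38) was close to it and H13 (1.53 ± 0.25) below it. Asb4 was lower again (-1.80 ± 0.47). With TMM factors at 1000 cells, Airn (0.73) and Impact (0.08) were no longer called, and H13 was at -0.36. With DESeq2 the Kcnq1ot1 call was lost as well (1.24, adjusted p = 0.0687).

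Single bins show where in the windows the counts lie. Of the member bins, 64 passed the filter at 10000 cells, 29 of them higher and 26 lower for H3K4me3, against 53.9% and 29.4% of all bins. The lower bins held 0 to 21 H3K4me3 counts over the 3 libraries. A bin that passed the filter through 1 target alone had to come out on the side of that target, so nothing is read from this split. With TMM factors the member bins split into 26 higher and 31 lower, and with DESeq2 into 22 and 31. The lower bins fell to 15, 11 and 13 without CTCF replicate 1, 2 or 3, when fewer bins had enough counts to be tested. The highest H3K4me3 bin of all members, at chr2:174329291-174330290 by the Gnas start, had 22.6, 16.2 and 26.2 CPM against 2.56 ± 0.541 CPM of CTCF (3.00 ± 0.25). The next of a member's own start was Ube3a, at chr7:59228761-59229760, with 21.9, 19.3 and 17.9 against 1.92 ± 1.49 CPM (3.30 ± 0.27). At Kcnq1ot1 the bin at chr7:143294421-143295420, inside the transcript, had 12.1 ± 1.33 against 0.964 ± 0.207 CPM (3.58 ± 0.36), and the bin of the Airn start, chr17:12740951-12741950, had 4.64 ± 1.04 against 1.1 ± 0.565 (2.04 ± 0.41), a call that was lost with DESeq2 (0.87). These values are well above the median of all bins tested, 1.03.

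The 5 highest CTCF bins lay 2874 to 40744 bases from the nearest annotated start, while some lower CTCF bins lay close to one. The highest CTCF bin of the member windows was inside Grb10 at chr11:11972956-11973955, with 14.7, 13.5 and 15.5 CPM at 10000 cells against 2.54 ± 0.443 CPM of H3K4me3 (-2.53 ± 0.31, edgeR adjusted p = 8.49e-13). Its neighbour at chr11:11974956-11975955 had 11.9, 12.2 and 14.5 CPM (-1.85 ± 0.30), and the bin between them had 7.11 ± 0.591. These outer bins were the 2 highest member bins also in the single CTCF libraries, with 13.3 ± 0.49 and 9.61 ± 1.48 CPM (n = 2), and lie 5930 and 7930 bases from the nearest annotated start. The bin at chr17:12809951-12810950, in the part of Airn beyond Igf2r, had 7.27, 11.6 and 8.61 CPM (-1.47 ± 0.33). By Tspan32, a tetraspanin of blood cells, the bin at chr7:143007421-143008420 had 8.08, 7.44 and 8.11 CPM (-0.85 ± 0.31). The Plagl1 bin at chr10:13086951-13087950, 3382 bases from the annotated start, had 8.69, 7.06 and 7.62 CPM of CTCF against 1.44 ± 0.0734 of H3K4me3 (-2.40 ± 0.41). In each of these bins the calls held with TMM factors and with DESeq2, which gave larger differences. The CTCF at the Asb4 start was in bins whose centres lie 906 and 1094 bases from it, with 5.31 ± 0.49 and 6.07 ± 1.11 CPM (-2.63 ± 0.54 and -2.05 ± 0.45).

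Between Cdkn1c and Slc22a18 lay the bin with the strongest contrast. At chr7:143463416-143464415 the 3 CTCF libraries at 10000 cells held 94 counts (6.67 ± 1.67 CPM) and the 3 H3K4me3 libraries held 0. Taking 3 counts over the group as the limit, CTCF was at least 10.8-fold higher. At 1000 cells the counts were 29 and 2. Another CTCF bin followed at chr7:143466416-143467415 (5.18 ± 0.415 CPM, -2.59 ± 0.55), 417 bases from the annotated start of Gm33663. Sequence was read only before annotated starts, so the CTCF motif was not searched in these bins.

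The Kcnq1 domain showed how the 4 targets divided along a noncoding transcript. Kcnq1ot1 runs through 83 bins inside the much longer Kcnq1 gene, from its start at chr7:143296547 to chr7:143213111. Its H3K4me3 was a narrow peak close to the start. The highest bin (12.1 CPM) was centred 1627 bases inside the transcript and is not among the 3 bins counted at the start. Pol2S2P, by contrast, covered the body, with a density of 1.88, 2.3 and 2.13 in the dual libraries at 1000 cells (mean 2.1 ± 0.211), of 2.07, 1.83 and 2.15 at 100 cells, and of 2.21 and 2 in the single libraries. The Kcnq1 gene outside this span had 0.668, 0.529 and 0.635 on the side towards Ascl2 and 0.577, 0.513 and 0.596 on the side towards Cdkn1c. Every library over Kcnq1ot1 was thus above every library in either flank.

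Within Kcnq1ot1 the elongating polymerase was not even. Split at its midpoint, a division made after the values were seen, the part with the start had a Pol2S2P density of 1.15, 1.05 and 1.32 and the part with the far end 2.62, 3.58 and 2.97. The far part was higher in every library, also at 100 cells (3.05, 2.77 and 3.22) and in the single libraries (2.82 and 2.24). H3K4me3 had the opposite order, at 1.41, 2.13 and 2.2 near the start and 0.634, 0.52 and 0.31 in the far part. CTCF was low over the whole span, with a mean of 0.752 ± 0.19, and its highest bin in Kcnq1 lay at chr7:143153421-143154420, outside Kcnq1ot1, with 7.18 ± 0.392 CPM. H3K27ac over the span was 0.832 ± 0.1.

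**Figure D3:**
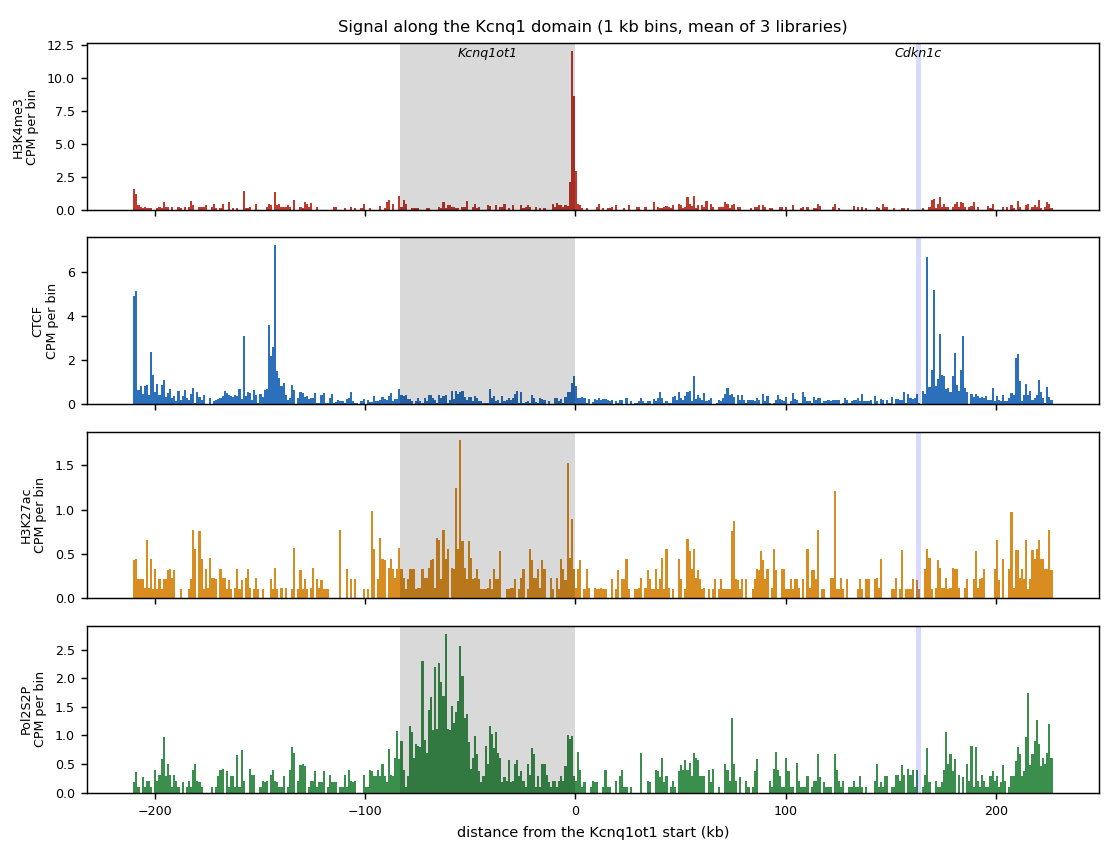
Mean CPM per 1 kb bin of 3 dual libraries along the Kcnq1 domain, by distance in kb from the Kcnq1ot1 start, for H3K4me3 and CTCF at 10000 cells and H3K27ac and Pol2S2P at 1000 cells. The grey span is Kcnq1ot1, transcribed to the left, and the narrow blue span is Cdkn1c. H3K4me3 peaks close to the start (12.1 CPM in a bin centred 1627 bases inside the transcript). Pol2S2P is highest in the far part of the grey span, and CTCF peaks lie outside that span.

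The Igf2r domain had a different layout. The Igf2r gene outside Airn had a Pol2S2P density of 0.71, 0.903 and 0.925, the stretch where Igf2r and Airn overlap had 1.39, 1.67 and 1.28, and Airn beyond Igf2r had 1.41, 1.05 and 1.19. The overlap was above the rest of Igf2r in each of the 3 libraries. H3K27ac had the same order of means, with 0.739, 0.739 and 0.813 in Igf2r outside Airn, 1.59, 1.77 and 1.9 in the overlap, and 1.34, 1.38 and 1.15 in Airn beyond Igf2r. CTCF was highest in Airn beyond Igf2r, with 1.87, 2.16 and 1.91, against 1.32, 1 and 1.38 in Igf2r outside Airn and 1.23, 1.44 and 1.29 in the overlap.

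**Figure D4:**
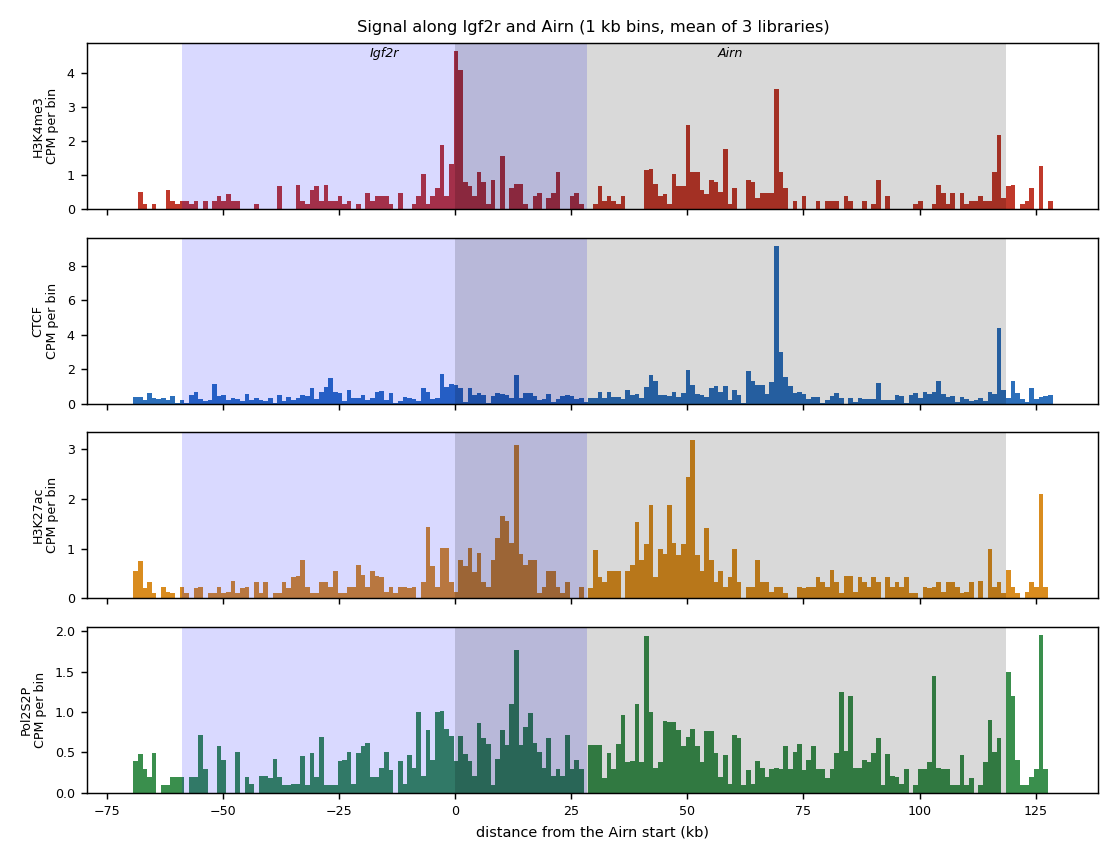
Mean CPM per 1 kb bin of 3 dual libraries along Igf2r (blue span) and Airn (grey span), by distance in kb from the Airn start, for the same targets and cell numbers as along the Kcnq1 domain. H3K4me3 peaks at the Airn start (4.64 CPM in its bin), and the single highest CTCF bin (9.17 CPM) lies in the part of Airn beyond Igf2r.

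The Snrpn domain underlies the Prader-Willi and Angelman syndromes in people. Apart from Ube3a, the mean density of its member windows was below the genome mean for H3K4me3, H3K27ac and Pol2S2P. For CTCF the windows of Magel2 (2.03) and Mkrn3 (1.46) were above it at 10000 cells. From its far end to the innermost start, Snrpn had an H3K4me3 density of 1.18, 1.39 and 0.825 and a Pol2S2P density of 0.558, 0.265 and 0.503. Beyond that start, where the long upstream transcripts lie, H3K4me3 was 0.205, 0.189 and 0.139 and Pol2S2P 0.229, 0.204 and 0.23. The Ube3a span in the same domain had 2.98, 3.56 and 2.96 for Pol2S2P. The stretch from Ndn to Peg12, with Magel2 and Mkrn3 between them, had 0.355, 0.366 and 0.368 for Pol2S2P and 0.289, 0.331 and 0.242 for H3K27ac, but 1.47, 1.52 and 1.31 for CTCF. In that stretch CTCF was thus above the genome mean and the marks of activity were below it, in every library.

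The comparison of H3K27ac with Pol2S2P asks where the mark of active regulatory elements and the elongating polymerase part from each other. At 1000 cells, 35 members were tested, since Ndn, Magel2 and Peg12 did not pass the filter. Only Asb4 and Grb10 were higher for H3K27ac and 6 members were lower, against 13% and 27.5% of all windows. The median log2 difference was -0.10 over the members and -0.17 over all windows, and the latter moved to 0.02 with TMM factors, while the share of calls that were higher moved from 32.1% to 52.3%. At 100 cells, 27 members were tested, with 1 higher and 8 lower, against 10.7% and 20.7% of all windows.

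Asb4 had 68.2, 73.2 and 68.5 CPM of H3K27ac against 29.6, 28.8 and 35.2 CPM of Pol2S2P (1.16 ± 0.12, edgeR adjusted p = 1.79e-20), and the difference at 100 cells was 1.20 ± 0.19. Every H3K27ac library was above every Pol2S2P library. The density of H3K27ac was 2.03 ± 0.298 over the gene and 5.71 ± 0.445 over the 10 kb past its far end. The bins at chr6:5442981-5443980 (6.37, 7.29 and 7.57 CPM) and chr6:5441981-5442980 (9.24, 4.97 and 4.47 CPM) were higher for H3K27ac by 2.22 ± 0.38 and 2.93 ± 0.47. They lie 52798 and 52070 bases from the nearest annotated starts, those of Pdk4, a kinase that restrains glucose oxidation, and of Asb4. With DESeq2 only the second of these bins was called. Grb10 had 75.5, 80.5 and 74.7 against 60.9, 50 and 61.3 CPM (0.42 ± 0.10, edgeR adjusted p = 0.000158), also without overlap.

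Ube3a was lowest, with 46.2, 51 and 55.4 CPM of H3K27ac against 115, 141 and 114 CPM of Pol2S2P (-1.28 ± 0.09, edgeR adjusted p = 2.9e-36). Kcnq1ot1 was next, with 26.8, 31.5 and 37.5 against 66.9, 78.2 and 76.6 (-1.21 ± 0.12). Impact had 44.6, 46.7 and 57.8 against 84.8, 97.8 and 105 CPM (-0.95 ± 0.10). In none of the 3 did the libraries of the targets overlap. Kcnq1 (-0.75 ± 0.09), whose window holds that of Kcnq1ot1, Copg2 (-0.62 ± 0.10) and Gnas (42, 53 and 52.6 against 61.2, 70.3 and 67.9 CPM, -0.43 ± 0.11) were also lower, and of the 6 Gnas alone was no longer called with TMM factors (-0.24) or DESeq2 (-0.26). At 100 cells the same 6 were lower, with Kcnq1ot1 at -1.23 ± 0.19 and Ube3a at -1.16 ± 0.14, and so were Mest (-1.14 ± 0.42, edgeR adjusted p = 0.0285) and Ppp1r9a (-0.44 ± 0.17). The Mest call was lost without H3K27ac replicate 2 (-0.72), Pol2S2P replicate 2 (-1.09) or Pol2S2P replicate 3 (-1.02), and that of Ppp1r9a without H3K27ac replicate 2 (-0.45) or 3 (-0.35) and Pol2S2P replicate 2 (-0.37) or 3 (-0.34). With TMM factors neither was called (-0.95 for Mest and -0.24 for Ppp1r9a). With DESeq2, 4 members were lower at 100 cells in place of 8, since Copg2 (-0.47, adjusted p = 0.0936), Impact (-0.47, adjusted p = 0.0615) and Ppp1r9a (-0.26, adjusted p = 0.392) were not called and Mest had no adjusted p.

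The other heads of domains were not called at 1000 cells. Igf2r had 43.3, 43.7 and 44 CPM of H3K27ac against 41.1, 44 and 42.1 of Pol2S2P, and Airn had 70.4, 76.2 and 71.6 against 71.9, 69 and 70. Snrpn had 48.4, 39.1 and 38.9 against 46.6, 39.2 and 44.5, and H13 had 88.9, 78.9 and 67.8 against 92.7, 78.2 and 71.2. Nnat had 37, 34.1 and 30.3 against 27.7, 32.6 and 35.8. The libraries of the targets overlapped in each of these 5. Cdkn1c had 3.82, 4.97 and 4.13 against 3.57, 6.01 and 6.31 CPM, and Dlk1 had 6.37, 5.96 and 6.88 against 6.31, 5.06 and 4.21, and Meg3 4.78, 8.28 and 8.6 against 11.8, 8.54 and 7.81. Plagl1 had 22.6, 23.2 and 15.8 against 17, 17.4 and 18, Peg3 12.7, 10.3 and 9.63 against 8.23, 4.75 and 10.2, Rasgrf1 22.6, 27.8 and 24.4 against 28.8, 28.2 and 22.2, and Sgce 28.4, 21.5 and 23.7 against 26.1, 30.4 and 27.6 CPM. Mest had 13.4, 6.96 and 13.4 against 17.6, 12.3 and 16.5 CPM. Peg10 had 8.92, 3.98 and 7.91 against 9.6, 9.18 and 9.91, so its Pol2S2P libraries all lay above its H3K27ac libraries, without a call. Without Pol2S2P replicate 2 the number of lower windows was 10 in place of 6, with Mest, Slc22a18 (-0.61), Phlda2 (-0.78) and Slc22a3 (-0.40) added. Mest was called lower without H3K27ac replicate 1 (-0.62), H3K27ac replicate 3 (-0.60) or Pol2S2P replicate 2 (-0.60), and Peg3 was called higher without Pol2S2P replicate 3 (0.73).

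At the gene ends, 6 member ends were tested at 1000 cells, 1 higher and 1 lower, against 15.8% and 17.4% of all ends. The far end of Asb4 was higher for H3K27ac (0.95 ± 0.38, edgeR adjusted p = 0.0437), but the call was lost with DESeq2 (0.98, adjusted p = 0.174), without the filter (edgeR adjusted p = 0.171), and without H3K27ac replicate 1 (0.76) or 3 or any 1 of the Pol2S2P replicates. An end of Impact was lower (-1.72 ± 0.42, edgeR adjusted p = 0.000834), and the number of lower ends was 3 without H3K27ac replicate 2 and 2 without H3K27ac replicate 1 or 3 or Pol2S2P replicate 1 or 3. Of 9 member bins tested, 3 were higher and 1 lower, against 55.9% and 9.59% of all bins. At 100 cells no member end passed the filter. The highest H3K27ac bin of the member windows was that of the Blcap start in the Nnat window, with 8.92, 9.94 and 9.29 CPM against 3.51 ± 1.37 CPM of Pol2S2P (1.43 ± 0.30), a call lost with TMM factors (0.51) and DESeq2 (0.50). The highest Pol2S2P bin lay in Impact, with 3.57, 4.75 and 3.61 CPM against 1.69 ± 1.53 of H3K27ac (-1.23 ± 0.46).

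**Figure D5:**
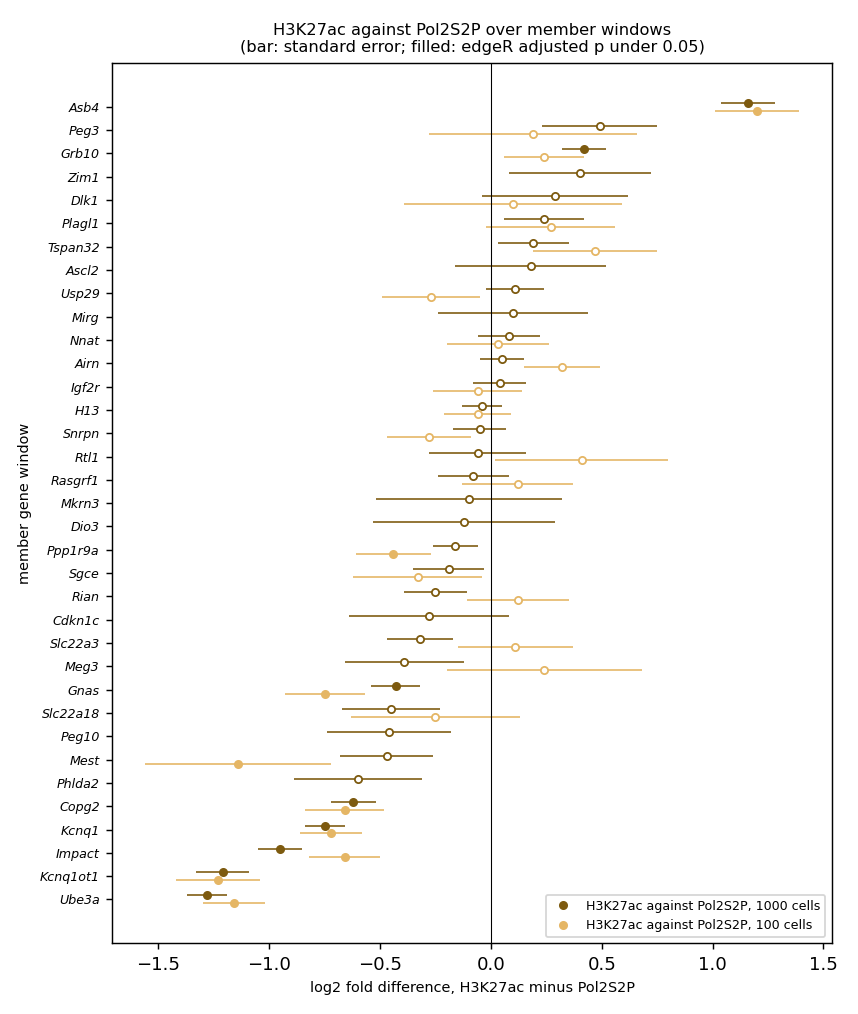
Log2 difference of H3K27ac minus Pol2S2P for each of the 35 member windows tested at 1000 cells (rows), with the values at 100 cells where tested, bars of 1 standard error, and filled points where the edgeR adjusted p was under 0.05. Asb4 (1.16) is at the top and Ube3a (-1.28) at the bottom, and most members lie within 0.5 of 0.

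Dual and single libraries of Pol2S2P differed in their level at several of these genes. Of 37 members tested at 1000 cells, 5 were higher and 5 lower in the dual libraries (n = 3 against 2), against 12.2% and 23.2% of all windows. Higher were Snrpn (46.6, 39.2 and 44.5 CPM against 24.4 and 28.7, 0.73 ± 0.16), Slc22a3, an organic cation transporter (32.4, 27.8 and 33.7 against 21 and 16.8, 0.71 ± 0.19), Rian (36.2, 32.3 and 41.2 against 19.8 and 26.2, 0.69 ± 0.17), Ppp1r9a (0.50 ± 0.12) and Copg2 (0.46 ± 0.11). Lower were H13 (92.7, 78.2 and 71.2 against 128 and 122, -0.63 ± 0.09), Nnat (27.7, 32.6 and 35.8 against 46.2 and 49.6, -0.58 ± 0.15), Impact (-0.49 ± 0.09), Gnas (-0.46 ± 0.11) and Ube3a (-0.22 ± 0.08, edgeR adjusted p = 0.0257). None of the 5 with library values given overlapped between dual and single. The call of Ube3a was lost in several settings, among them the replicate block (-0.18) and without dual replicate 1 or 3 (-0.17 each) or single replicate 1 (-0.18), that of Rian without single replicate 1 (0.48, edgeR adjusted p = 0.111), and that of Nnat with the gene span alone (-0.42, edgeR adjusted p = 0.46).

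For CTCF at 10000 cells, 0 of 20 member ends differed between dual and single libraries, against 0.0769% of all ends called higher and 0.0177% lower. At an unadjusted p under 0.05 there were 4 in edgeR, the starts of Airn, Asb4, Kcnq1ot1 and Ube3a, and 1 in DESeq2, which called 0 after adjustment. The smallest adjusted p was that of the Ube3a start, with a mean of 4.84 CPM in the dual and 2.34 in the single libraries (1.04 ± 0.31, edgeR adjusted p = 0.133). Kcnq1ot1 had 1.10 ± 0.52 and Airn 0.93 ± 0.40. The H3K4me3 at these starts, the partner target in the dual libraries, is given above, and its part in the CTCF values was not tested.

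The number of cells changed no member past the threshold. Of 27 members tested for H3K4me3 (10000 against 1000 cells), edgeR called 0, and Peg3 alone had an unadjusted p under 0.05 there, while DESeq2 had 0, against 1.76% of all windows higher and 0.347% lower. For CTCF it was 0 of 38, with 8 unadjusted in edgeR and 4 in DESeq2, against 0.0297% and 0.016%. The smallest edgeR adjusted p was 0.0612, for Igf2r, which was called higher at 10000 cells without CTCF replicate 1 at 1000 cells (0.50, edgeR adjusted p = 0.0401). For H3K27ac (1000 against 100 cells) it was 0 of 33, with 1 unadjusted in edgeR (Mest) and 0 in DESeq2, against 0% and 0.00539%, and for Pol2S2P 0 of 34, with 3 in edgeR (Copg2, Mkrn3 and Snrpn) and 2 in DESeq2, against 0.00254% and 0.00762%. The difference of H3K4me3 and CTCF did not change with cell number past the threshold for any of 37 members (2 unadjusted in edgeR, Igf2r and Slc22a3, and 1 in DESeq2, against 0.00251% called in each direction). For H3K27ac and Pol2S2P it was 0 of 34, with 0 unadjusted in edgeR and in DESeq2, against 0% of all windows. DESeq2 called 0 members after adjustment in each of these 6 comparisons. These tests do not show that the levels were equal.

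Over all windows at 10000 cells, 32% were higher for H3K4me3 than for CTCF and 37.2% lower, with a median log2 difference of -0.24. Grouped by the parent of origin, 3 of 19 paternally expressed members were higher for H3K4me3 (Nnat, Kcnq1ot1 and Impact) and 10 were lower, with a median of -0.54. Of 17 maternally expressed members, 2 were higher (H13 and Ube3a) and 11 lower, with a median of -0.78. Gnas and Grb10, which have transcripts of both kinds, went opposite ways, Gnas higher and Grb10 lower. Of 12 members whose promoter lies in a maternally methylated control region, 3 were higher and 6 lower, with a median of -0.38. Here and among the paternally expressed members, Nnat counts as higher by its window, whose H3K4me3 peak was at the start of Blcap. Of 7 members in domains with a paternally methylated control region, 0 were higher and 6 lower, with a median of -0.78. All but Rasgrf1 lie in the Dlk1-Dio3 domain, and some of their windows overlap. Of the Meg3 and Rtl1 bins, 53.8% and 81.7% are shared with another member, so these members are not independent. Whether these groups differ from each other was not tested.

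Among the genes that set and keep imprints, the windows had more H3K4me3 than CTCF in 14 of 20 and less in 4 at 10000 cells, against 32% and 37.2% of all windows, with a median of 1.00 against -0.24. The 4 lower ones were Dnmt3a, Dnmt3b, Dnmt3l and Dppa3. For H3K27ac against Pol2S2P at 1000 cells, 0 of 20 were higher and 17 lower, against 13% and 27.5% of all windows (median -0.62 against -0.17). Their median H3K4me3 density at starts was 21.8. The highest were the starts of Cbx5 (55.7), Smchd1 (45.1), a chromatin silencer, and Arid4b (41.9). Zfp445 (28.2), which binds methylated imprints, and Ctcf itself (23.6) lay above the list median, and Trim28 (21.9), the corepressor of Zfp445, was close to it. The starts of Zfp57 (14.8) and Dnmt1 (6.75) lay below it. Those of Dnmt3a (3.79), Dnmt3b (5.29) and Dnmt3l (0.658), the de novo methyltransferase group, and of Tet1 (3.96), which oxidises methylated cytosine, were the lowest of this list. Of 34 tested windows from 36 other imprinted genes, 9 were higher for H3K4me3 and 13 lower, near the shares of all windows (32% and 37.2%), and their median was -0.22 against -0.24. For H3K27ac against Pol2S2P, 5 of the 34 were higher and 8 lower, again near the shares of all windows (13% and 27.5%). Among the marker windows, H3K4me3 was higher in 5 of 10 and lower in 4 for myoblasts, and higher in 2 of 8 and lower in 2 for fibroblasts, against 32% and 37.2% of all windows. It was higher in 1 of 8 and lower in 5 for neurons, higher in 0 of 8 and lower in 6 for blood and endothelium, and higher in 1 of 6 and lower in 5 for pluripotent cells.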

How the data were processed

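The labels list 34 samples, of which 28 libraries were analysed and 6 were not analysed here. The deposited table holds raw read counts per 1 kb bin, made by the authors with no normalization, and 4 of its columns that match no sample were not used. Per the submitters' processing notes, bcl2fastq, HISAT2 2.1.0 and deepTools 3.3.1 were used with GRCm38. The treatment of duplicate and multiply mapped reads, which can change the counts of single bins, is, in the sources used here, not given.

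Of 2728634 bins, 2631639 lie on the autosomes and the X chromosome, and 9 whose density exceeded the genome mean 50 times in each group were left out, which keeps 2631630. Library size was the sum over these chromosomes, with no further scaling. Gene positions came from RefSeq, with 49550 of 49997 genes placed and 26793 with a strand. Windows reach 10 kb beyond each gene, and gene ends take 1 kb on either side.

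Counts were tested with edgeR 4.0.16 (quasi-likelihood, filterByExpr, Benjamini-Hochberg over all features, threshold 0.05) in R 4.3.3, a procedure tested on simulated data. Alternatives were TMM factors, DESeq2 1.42.0, no filter, the gene span alone, a replicate block and leaving out each library. Python 3.11.15, numpy 2.4.6, pandas 2.3.3, scipy 1.17.1 and matplotlib 3.10.9 served for levels and figures. The limit of 3 counts covers counting error only, while SD values are spreads between libraries and SE values come from the edgeR fit. Deviations from the group means over 21436 windows correlated between same-numbered H3K27ac and Pol2S2P libraries in every pair (r = 0.105 to 0.142). These numbers were therefore taken to pair the samples, but only in the replicate block. The main tests, whose p-values and SE are given above, treated the libraries as unpaired.

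The members and the gene lists were chosen with earlier results of these data known. Named with values in every library were the heads of the domains (Peg3, Snrpn, Kcnq1ot1, Cdkn1c, Airn, Igf2r, Meg3, Dlk1, Mest, Peg10, Sgce, Grb10, Plagl1, Nnat, Gnas, Impact, H13 and Rasgrf1), the 3 members with the largest called difference in each direction and the 5 highest bins of each target.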

Additional observations from a re-analysis of the deposited data

How the results depend on the processing

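Depth limits the single bins and gene ends: only 12 and 6 member ends of H3K4me3 and CTCF at 10000 and 1000 cells had enough counts to be tested, and 0 at 100 cells for H3K27ac and Pol2S2P. The scaling sets the zero point of each difference, and TMM factors and DESeq2 centre it on the median feature. The median over all features moved with TMM factors from 1.47 to 0.02 for the ends at 10000 cells, from 1.93 to 0.05 for those at 1000 cells, from 1.03 to 0.08 for the bins of H3K4me3 and CTCF, from 0.97 to 0.05 for the bins of H3K27ac and Pol2S2P, and from -0.17 to 0.02 for the windows of H3K27ac and Pol2S2P at 1000 cells. The share of calls that were higher moved from 46.2% to 58.3% with DESeq2 for the H3K4me3 and CTCF windows at 10000 cells, from 88.4% to 47.2% with TMM factors for the ends at 1000 cells, from 34.1% to 55% for the H3K27ac and Pol2S2P windows at 100 cells, from 60.6% to 45.3% for their ends at 100 cells, from 64.7% to 50.1% for the H3K4me3 and CTCF bins, from 85.4% to 34.9% for the H3K27ac and Pol2S2P bins, from 34.4% to 23.4% with DESeq2 for dual against single Pol2S2P, from 81.2% to 61.1% with TMM factors for dual against single CTCF, and from 83.5% to 51.1% and 65% to 37.5% for H3K4me3 and CTCF between cell numbers.

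Directions reversed with TMM factors and DESeq2 at the H3K4me3 and CTCF ends of H13 (-0.14 and -0.18 at 10000 cells, -0.36 and -0.39 at 1000 cells), at the Peg3 and the Usp29 start (-0.85 and -0.89 each) and at the Peg12 start (-1.43 and -1.51). The Nnat window reversed for H3K27ac against Pol2S2P at 1000 cells with the gene span alone (-1.13). The cause was not tested beyond the recentring itself.

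Counts of calls moved as follows. At the ends of H3K4me3 and CTCF at 10000 cells, members were 3 higher and 6 lower with TMM factors and 1 and 6 with DESeq2. At 1000 cells, 7936 and 6548 of all ends were called in place of 12416, with 2 and 1 members higher. For H3K27ac and Pol2S2P at 1000 cells, 5 member windows were higher with TMM factors, DESeq2 called 3171 of all ends in place of 5662 with 0 members higher, and 3 member ends were lower without the filter. Their windows at 100 cells gave 2 members higher with TMM factors, and with DESeq2 2 higher, 4 lower and 6586 of all in place of 10181. Their bins gave 5487 calls with TMM factors, 3529 with DESeq2 (1 member higher) and 7928 without the filter, in place of 12223. Dual against single CTCF ends gave 18, 0, 7 and 14 calls with TMM factors, DESeq2, no filter and the replicate block, in place of 32. Dual against single Pol2S2P gave 8 members higher with TMM factors and 7338 calls in all with DESeq2, in place of 14982. H3K4me3 between cell numbers gave 405 and 28 with TMM factors and DESeq2 in place of 644, and CTCF gave 4 with DESeq2 and 34 without the filter in place of 20. The change of the H3K4me3 and CTCF difference with cell number gave 4 with TMM factors and 0 with DESeq2, in place of 2.

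With the gene span alone, all calls were 18018 and 13945 for H3K4me3 against CTCF at 10000 and 1000 cells (28354 and 22053 with windows), 9548 and 5313 for H3K27ac against Pol2S2P at 1000 and 100 cells (16909 and 10181), 9510 for dual against single Pol2S2P, and 318 and 6 for H3K4me3 and CTCF between cell numbers.

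Leaving out 1 library gave 2 to 4 and 1 to 2 lower member ends for H3K4me3 against CTCF at 10000 and 1000 cells, and 11 to 35 lower member bins. For H3K27ac against Pol2S2P at 1000 cells it gave 6 to 10 lower member windows, 0 to 1 higher and 1 to 3 lower member ends, and 1 to 2 lower member bins. Over all features it gave 3 to 7 calls for dual against single CTCF, 9302 to 13425 for dual against single Pol2S2P, 145 to 560, 3 to 48 and 2 to 8 for H3K4me3, CTCF and Pol2S2P between cell numbers, with 0 to 1 member higher for CTCF.

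Same-numbered H3K4me3 and CTCF libraries correlated by r = 0.039 to 0.091, and those of other numbers by r = -0.061 to -0.009. Each library thus correlated best with its own number, though more weakly than for H3K27ac and Pol2S2P. The main tests did not use the numbers as pairs for either pair of targets. The replicate block called Rian lower at 1000 cells (-0.41). For dual against single Pol2S2P the block lost Ube3a (-0.18) and called Rtl1 (0.80). For the change of the H3K27ac and Pol2S2P difference with cell number the block gave 1 call in all in place of 0. It changed no other member's call.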
